A study of Vigna radiata with 9 samples.

Results

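The morning clock genes of mung bean (Vigna radiata) leaves were described in 9 RNA-seq libraries. The 10 genes were chosen by their product descriptions among 26966 annotated genes, and all 10 were among the 19304 genes with enough reads to be tested. They were 2 genes described as LHY, 1 as LNK1, 2 as LNK2, 2 as REVEILLE 8 (RVE8) and 3 as REVEILLE 1 (RVE1). The plants were wild type, of the variety Lvfeng No.2, at the onset of flowering, and each of the 3 groups held 3 pots. CK, the control, received a water spray and stayed in the natural environment. LT received the same water spray and then spent 4 days in a phytotron held at 15 °C by day and by night. LT+S received uniconazole, a triazole that blocks gibberellin synthesis, at 50 mg/L and then the same cold. The cold began 36 h after the spray. Temperature and place of growth changed together between CK and the cold groups, and their effects cannot be told apart here. The labels of the cold groups give day 4, while those of CK give no day. The hour at which leaves were taken is not given in the sources used here, which bears on every gene below, because the RNA of clock genes rises and falls each day.

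In Arabidopsis, where these genes are best known, LHY and its close relative CCA1 are single-MYB transcription factors that peak around dawn and repress genes of the evening, such as TOC1 and GIGANTEA, through a promoter motif called the evening element. RVE8 is a related MYB factor that binds the same motif and activates evening genes, and LNK1 and LNK2, which do not bind DNA by themselves, are its co-activators. RVE1 is another relative, which connects the clock to auxin production and promotes seed dormancy. Evening proteins in turn repress the morning genes, so that the loop closes over a day.

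Values are read counts scaled to CPM, reads per fixed number of reads in the library, with TMM factors that correct for differences in composition between libraries. A gene was called at an adjusted p below 0.05 in the quasi-likelihood test of edgeR over all 19304 genes. Library totals ran from 19561896 to 21617340. TMM factors were 0.781 to 0.804 in CK, and LT had 1.05 to 1.17 and LT+S had 1.10 to 1.14, while the 10 most abundant genes took 13.5 to 13.8% of reads in CK against 4.43 to 7.17% of those in LT and 5.67 to 6.59% of those in LT+S. Scaling by library totals alone moved the median log2 fold change of all genes from 0.01 to 0.52 under LT, and from 0.01 to 0.50 under LT+S, so all changes below are relative to the bulk of genes. Leaf markers (20 genes for chlorophyll a-b binding proteins and the small subunit of Rubisco, all detected) summed to 59975 to 101470 CPM in CK, whereas LT had 6725 to 15356 and LT+S 15862 to 18277. Of these markers, 19 were lower and 1 higher in each cold group than in CK. The part of this shift in the results below was not tested, and in bulk leaf RNA fewer cells of a type and less RNA per cell cannot be told apart.

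Under cold alone, most of the morning clock genes were lower than in CK. An LHY gene, both LNK2 genes, LNK1 and both RVE8 genes fell, by 0.59 to 2.01 on the log2 scale, and an RVE1 gene was called higher by 0.86. That made 6 of 10 lower, where 23.7% of all tested genes were lower, and 1 of 10 higher, where 22.8% of all genes were. Under cold with uniconazole an LHY gene, both LNK2 genes, LNK1 and both RVE8 genes were again below CK. These were 6 of 10, beside 21.9% of all genes, and 0 of 10 rose, beside 19.7% of all genes. The median log2 fold change of the 10 genes was -0.71 in LT and -0.82 in LT+S, and that of all genes was 0.01 in both. With library totals alone, 4 of the 10 were lower and 1 higher in either cold group, where LT had 12% of all genes lower and 48% higher, and LT+S had 10.3% lower and 46.5% higher. A single set of 3 CK libraries served both comparisons. Together the 10 genes took 0.436 to 0.581% of all reads in CK, beside 0.357 to 0.404% of those in LT and 0.369 to 0.397% of those in LT+S.

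**Figure D1:**
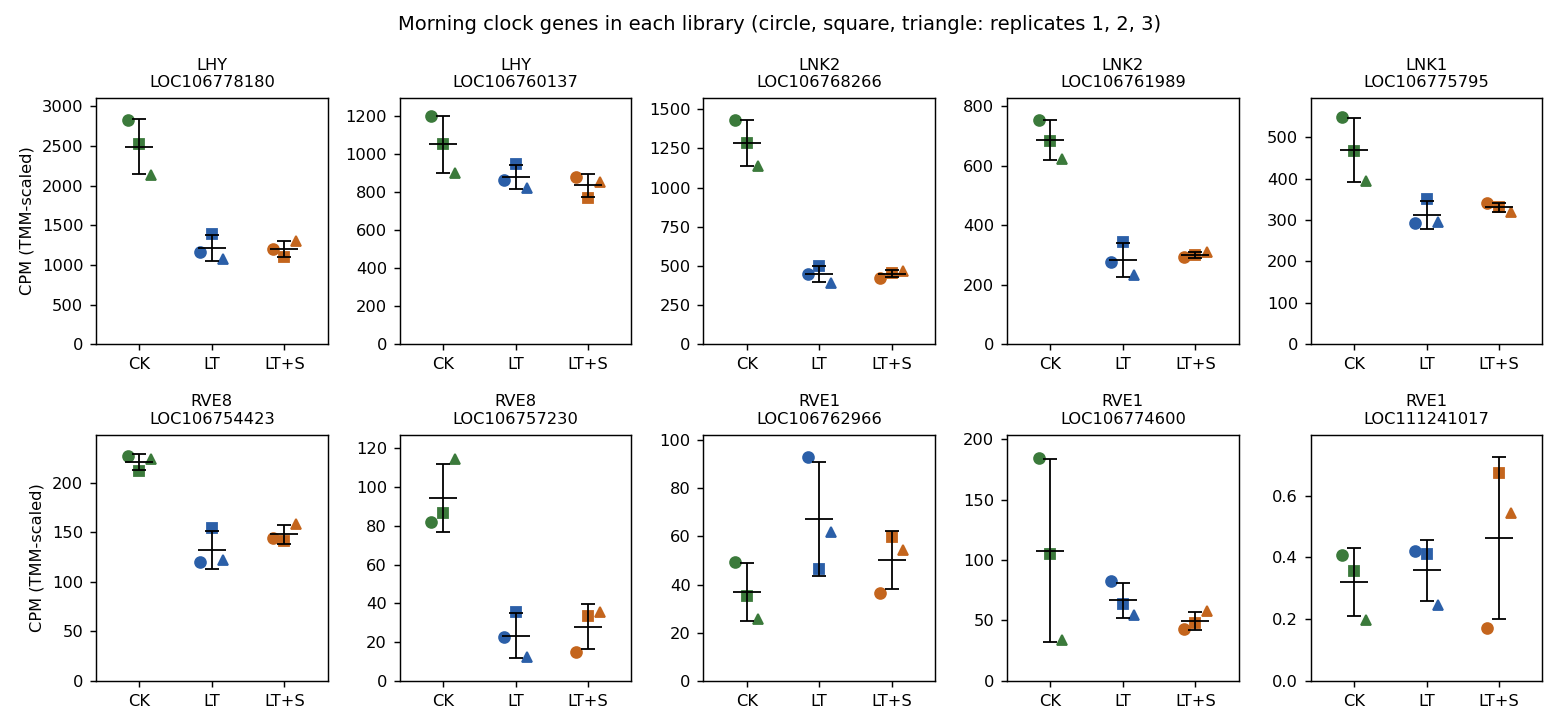
Each panel plots 1 of the 10 morning clock genes, with TMM-scaled CPM on the vertical axis (from 0, on a scale of its own) and the groups CK, LT and LT+S on the horizontal axis. Points are libraries (circle, square and triangle for replicates 1, 2 and 3), and bars give the mean ± SD of 3 libraries. LHY LOC106778180 lay between 2132 and 2825 CPM in CK and between 1075 and 1392 CPM in both cold groups, whereas RVE1 LOC106774600 ran from 33.7 to 185 CPM within CK.

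The more abundant LHY gene by reads, LOC106778180, lies on a scaffold not placed on a chromosome of the Vradiata_ver6 assembly. Its level in the CK replicates 1, 2 and 3 was 2825, 2524 and 2132 CPM. In LT it was 1168, 1392 and 1075 CPM, and in LT+S it was 1200.4, 1096 and 1302 CPM. Every cold library lay below every CK library. The mean was 2494 ± 347 CPM (SD, n = 3) in CK, 1212 ± 163 CPM in LT and 1199 ± 103 CPM in LT+S. The log2 fold change was -1.04 in LT (95% interval -1.46 to -0.63, adjusted p = 0.00184 from edgeR) and -1.06 in LT+S (-1.47 to -0.64, adjusted p = 0.00206 from edgeR), and the gene was called in 15 of 15 other settings in each comparison.

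The other LHY gene, LOC106760137, lies on chromosome 5 from 358808 to 374444. It was at 1197, 1049.9 and 898 CPM in CK, at 863, 947 and 821 CPM in LT and at 880.0, 765 and 854 CPM in LT+S. The LT range overlapped that of CK, while the highest LT+S library was just under the lowest CK library. The gene did not pass the test in either comparison, with a log2 fold change of -0.26 in LT (95% interval -0.61 to 0.10, adjusted p = 0.206 from edgeR) and -0.33 in LT+S (-0.69 to 0.02, adjusted p = 0.119 from edgeR). With library totals alone the sign turned, to 0.24 and 0.16. DESeq2 on the 9 libraries called it lower in LT+S (-0.33, adjusted p = 0.0384), which was the only one of 15 settings to do so, the adjusted p over them running from 0.0384 to 0.382.

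The LNK genes, whose Arabidopsis counterparts recruit the transcription machinery to clock targets, were all called lower in both cold groups. LNK2 LOC106768266 lies on chromosome 7 from 51787590 to 51796611. It was at 1430.3, 1285 and 1138 CPM in CK, at 449, 498 and 393 CPM in LT and at 425, 453 and 469 CPM in LT+S. The 6 cold libraries lay at 393 to 498 CPM, far under the lowest CK library. Its log2 fold change was -1.52 in LT (95% interval -1.87 to -1.18, adjusted p = 1.26e-04 from edgeR) and -1.52 in LT+S (-1.86 to -1.17, adjusted p = 1.76e-04 from edgeR).

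LNK2 LOC106761989 lies on chromosome 5 from 26592575 to 26605898. It was at 755, 684 and 623 CPM in CK, at 276, 344 and 232 CPM in LT and at 292, 300.4 and 311 CPM in LT+S. Here too all cold libraries lay far below CK, and within LT+S the 3 values were close together (301 ± 9.45 CPM, SD, n = 3). The log2 fold change was -1.28 in LT (95% interval -1.65 to -0.91, adjusted p = 3.75e-04 from edgeR) and -1.19 in LT+S (-1.56 to -0.82, adjusted p = 6.79e-04 from edgeR). Both LNK2 genes were called lower in 15 of 15 other settings in each comparison.

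LNK1 LOC106775795, on chromosome 10 from 19975259 to 19982597, changed less. Its CPM was 547, 467 and 394 in CK, 292, 352 and 294 in LT and 342, 330.3 and 320.0 in LT+S. CK did not overlap with either cold group, although its lowest library was near the highest LT library. The log2 fold change was -0.59 in LT (95% interval -0.93 to -0.25, adjusted p = 0.0116 from edgeR) and -0.51 in LT+S (-0.85 to -0.17, adjusted p = 0.0247 from edgeR). The LT+S call was lost without CK replicate 1 (-0.38, adjusted p = 0.0747 from edgeR), without CK replicate 2 (-0.51, 0.0695) and without LT+S replicate 1 (-0.53, 0.0556), 2 (-0.50, 0.0719) or 3 (-0.48, 0.0793). With library totals alone neither comparison passed, at -0.09 in LT (adjusted p = 0.625 from edgeR) and -0.01 in LT+S (adjusted p = 0.941 from edgeR).

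Of the RVE8 genes, LOC106754423 lies on an unplaced scaffold. It was at 226, 212 and 224 CPM in CK, at 120.2, 154 and 122 CPM in LT and at 144, 141 and 159 CPM in LT+S. The CK libraries agreed closely (221 ± 7.87 CPM, SD, n = 3), and all cold libraries were lower. The log2 fold change was -0.74 in LT (95% interval -1.02 to -0.46, adjusted p = 0.00147 from edgeR) and -0.58 in LT+S (-0.86 to -0.29, adjusted p = 0.00597 from edgeR). Both calls were lost with library totals alone, at -0.24 (adjusted p = 0.0835 from edgeR) and -0.08 (adjusted p = 0.537 from edgeR).

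RVE8 LOC106757230, on chromosome 3 from 4497514 to 4500637, had the largest decrease of the 10 genes in both comparisons. It was at 82.0, 86.4 and 115 CPM in CK, at 22.7, 35.3 and 12.1 CPM in LT and at 14.7, 33.7 and 35.4 CPM in LT+S. The cold libraries varied widely among themselves but all stayed below CK. The log2 fold change was -2.01 in LT (95% interval -2.97 to -1.06, adjusted p = 0.00438 from edgeR) and -1.76 in LT+S (-2.70 to -0.81, adjusted p = 0.00926 from edgeR), and both calls held in 15 of 15 other settings.

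The RVE1 genes did not share a direction. RVE1 LOC106762966, on chromosome 6 from 7456375 to 7459850, was at 49.4, 35.4 and 25.6 CPM in CK, at 93.0, 46.5 and 61.7 CPM in LT and at 36.6, 59.6 and 54.2 CPM in LT+S. The lowest LT library was below the highest CK library, so the groups overlapped. The log2 fold change in LT was 0.86 (95% interval 0.16 to 1.57, adjusted p = 0.048 from edgeR), just inside the threshold, and it was called in 8 of 15 other settings. The call was lost without CK replicate 2 (0.84, adjusted p = 0.125 from edgeR), CK replicate 3 (0.66, 0.137), LT replicate 1 (0.56, 0.173) or LT replicate 3 (0.92, 0.0678). In LT+S the log2 fold change was 0.44 (-0.26 to 1.15, adjusted p = 0.283 from edgeR), and this passed only with library totals alone (0.94, adjusted p = 0.0367 from edgeR).

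RVE1 LOC106774600, on chromosome 10 from 10984491 to 10987594, was spread widely within CK. It was at 185, 105 and 33.7 CPM in CK, at 82.8, 63.4 and 54.4 CPM in LT and at 43.0, 48.0 and 57.6 CPM in LT+S. All 6 cold libraries lay between CK replicate 3 and CK replicate 2. Neither comparison passed, with log2 fold changes of -0.69 in LT (95% interval -1.77 to 0.39, adjusted p = 0.266 from edgeR) and -1.12 in LT+S (-2.21 to -0.03, adjusted p = 0.0922 from edgeR). Without CK replicate 3 it was called lower in LT (-1.11, adjusted p = 0.0118 from edgeR) and in LT+S (-1.55, adjusted p = 0.00357 from edgeR), whereas without CK replicate 1 the values were -0.05 and -0.48. DESeq2 also called it lower in LT+S, with 9 libraries (adjusted p = 0.043) and with 6 (adjusted p = 0.0421). The third gene of the group, RVE1 LOC111241017 on an unplaced scaffold, had 7, 6 and 3 reads in CK, 10, 9 and 6 in LT and 4, 16 and 13 in LT+S. At this depth no difference was detectable, with a log2 fold change of 0.14 in LT (95% interval -1.17 to 1.46, adjusted p = 0.857 from edgeR) and 0.52 in LT+S (adjusted p = 0.497 from edgeR).

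The paralogs were then set against each other within each library, where no scaling between libraries is needed. These shares are of reads and are not corrected for transcript length, and reads that fit both paralogs could have been shared between them, since their treatment is not stated. Of the reads of the 2 LHY genes, LOC106760137 took 29.6 ± 0.194% (SD, n = 3) in CK, 42.1 ± 1.44% in LT and 41.0 ± 1.35% in LT+S. The CK libraries lay within 29.4 to 29.8%, and the 6 cold libraries within 39.6 to 43.3%. The counting interval of a single library was narrow beside this shift, for example 29.0 to 29.7% for CK replicate 2 (95% binomial interval, counting error only). The log2 ratio of LOC106760137 to LOC106778180 was 0.79 higher in LT than in CK and 0.73 higher in LT+S.

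The other paralog pairs shifted by different amounts. Among LNK2 reads the share of LOC106761989 was 34.9 ± 0.438% (SD, n = 3) in CK, 38.7 ± 1.95% in LT and 40.2 ± 0.503% in LT+S, a log2 ratio 0.23 and 0.32 higher. Among RVE8 reads the share of LOC106757230 went the other way, from 29.8 ± 3.70% (SD, n = 3) to 14.5 ± 4.95% under LT and 15.6 ± 5.54% under LT+S, with differences in the log2 ratio of -1.38 and -1.27. Among RVE1 reads LOC106762966 took 29.8 ± 11.7% (SD, n = 3) in CK, 49.3 ± 6.19% in LT and 49.7 ± 4.77% in LT+S, with log2 ratios to LOC106774600 that were 1.25 and 1.28 higher. Apart from RVE1 in LT, every pair separated the cold groups from CK without overlap. How often ratios of other gene pairs do so was not computed. Among the CPM values of all tested genes, 54.8% in LT and 55.7% in LT+S were without overlap with CK. Over these 4 pairs and 3 comparisons, the 7 ratios without overlap had p = 0.1 in a two-sided exact permutation test, the smallest that 3 libraries against 3 allow, and an adjusted p of 0.171 over 12 tests. RVE1 in LT had an exact p = 0.2. This test therefore could not reach 0.05, and it was chosen after the values were seen.

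**Figure D2:**
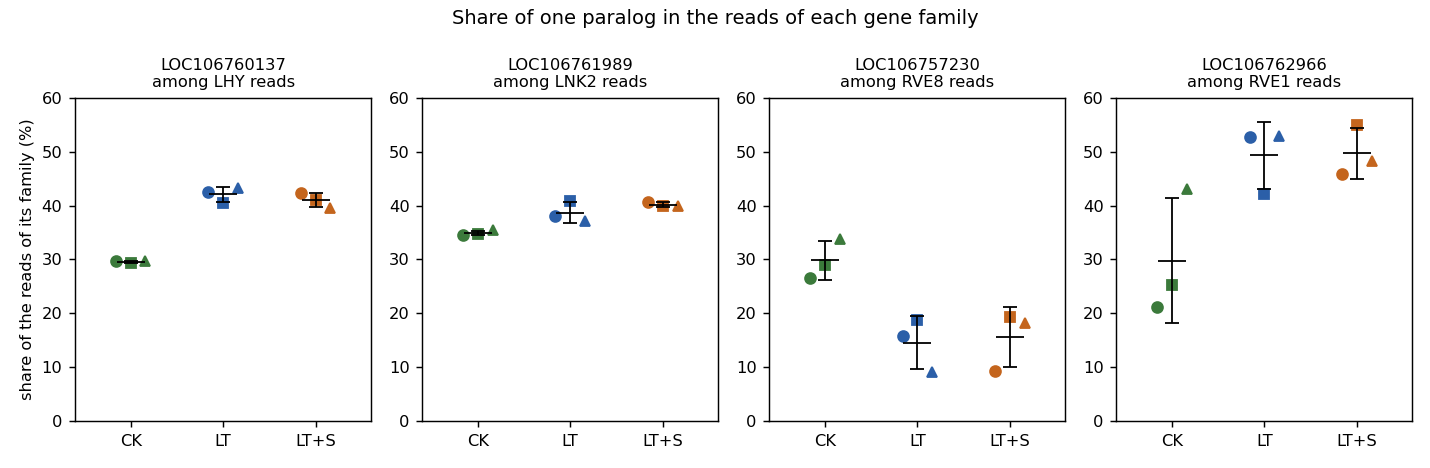
Each panel plots the share (%) that 1 paralog took of all reads of its gene family, in CK, LT and LT+S, for LHY, LNK2, RVE8 and RVE1. Points are libraries (circle, square and triangle for replicates 1, 2 and 3), and bars give the mean ± SD of 3 libraries. The share of LHY LOC106760137 was 29.6% in CK, 42.1% in LT and 41.0% in LT+S, while that of RVE8 LOC106757230 went from 29.8% to 14.5% and 15.6%.

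Uniconazole was compared with the water spray under the same cold, LT+S against LT. None of the 10 genes passed the test in either direction (0 lower and 0 higher in edgeR and in DESeq2, and 0 at an unadjusted p below 0.05). Among all genes edgeR called 0.00518% lower and 0.0104% higher, and DESeq2 on the 9 libraries called 0.565% lower and 0.637% higher. Few genes of any kind thus passed. LT+S and LT overlapped in 10 of 10 genes, where 14.1% of all tested genes were without overlap. The intervals set how large a difference could have gone unseen. For LHY LOC106778180 the log2 fold change was -0.01 (95% interval -0.43 to 0.40), and for LHY LOC106760137 it was -0.07 (-0.43 to 0.28). The LNK2 genes LOC106768266 and LOC106761989 gave 0.01 (-0.33 to 0.35) and 0.09 (-0.28 to 0.45), and LNK1 gave 0.08 (-0.26 to 0.42).

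RVE8 LOC106754423 gave 0.17 (95% interval -0.12 to 0.45), the narrowest interval of the 10 genes. The other RVE genes were less tightly bounded. RVE8 LOC106757230 gave 0.26 (-0.67 to 1.19). RVE1 LOC106762966 gave -0.42 (-1.12 to 0.28), RVE1 LOC106774600 gave -0.43 (-1.51 to 0.65), and RVE1 LOC111241017 gave 0.37 (-0.84 to 1.59). For RVE8 LOC106757230 and the RVE1 genes, differences larger than 1 on the log2 scale thus lay within the intervals in at least 1 direction. The paralog ratios of LT+S and LT differed by -0.06 for LHY, 0.09 for LNK2, 0.11 for RVE8 and 0.03 for RVE1 (log2), with overlapping ranges in each (exact permutation p = 0.4, 0.4, 0.7 and 1.0). Plants given uniconazole without cold were not analysed here.

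**Figure D3:**
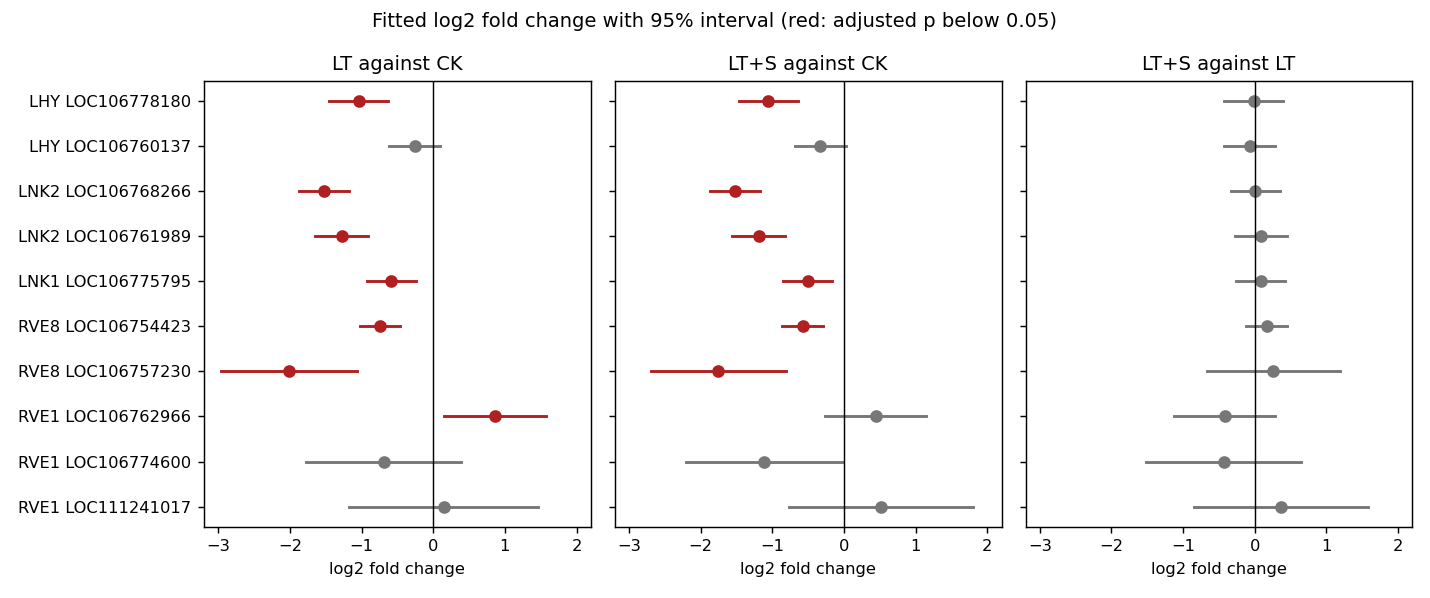
The 3 panels plot the fitted log2 fold change (horizontal axis) of the 10 morning clock genes (rows) for LT against CK, LT+S against CK and LT+S against LT. Points are estimates from all 9 libraries, lines are 95% intervals, and red marks an adjusted p below 0.05. In LT 6 genes are red on the lower side and 1 on the higher side, in LT+S against CK 6 are red on the lower side, and in LT+S against LT none is red.

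Within CK the replicates themselves differed in a shared order. CK replicate 1 was the highest and CK replicate 3 the lowest in 8 of the 10 genes (80%). The same held in 10 of 19 evening and daytime clock genes (52.6%) and in 34% of all tested genes. This order was chosen for counting after the values were seen, so the counts are a description only. The difference of replicate 1 from replicate 3 was 0.41 for each LHY gene on the log2 scale, 0.33 and 0.28 for the LNK2 genes and 0.48 for LNK1. It was 0.01 for RVE8 LOC106754423, and RVE8 LOC106757230 went the other way (-0.48). The RVE1 genes had 0.95 (LOC106762966), 2.45 (LOC106774600) and 0.78 (LOC111241017), beside a median of 0.01 over all genes. The SD of LOC106774600 in CK was 1.25 on the log2 scale, larger than in 96.2% of tested genes. The summed vascular and secondary wall markers (55 of 56 listed genes detected) ran in the opposite order in CK, at 88.5, 463 and 811 CPM in replicates 1, 2 and 3, beside 234 to 620 CPM in LT and 375 to 439 CPM in LT+S. Leaf markers (59975, 76246 and 101470 CPM) and root and nodule markers (1482, 1637 and 1818 CPM) were also lowest in CK replicate 1 and highest in CK replicate 3. Flower and pollen markers had the order of the clock genes (547, 474 and 455 CPM). The part of these markers in the spread was not tested.

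Marker genes of other organs were followed as well. Flower and pollen markers (42 of 71 listed genes detected) summed to 455 to 547 CPM in CK, beside 632 to 798 CPM in LT and 501 to 692 CPM in LT+S. The root and nodule list was matched by words in the descriptions, among them nodulin and leghemoglobin. It also holds early nodulin-like proteins, a nodulin homeobox gene and a leghemoglobin reductase. Whether it follows root or nodule tissue was not checked. Its genes (24 of 34 listed genes detected) summed to 1482 to 1818 CPM in CK, beside 451 to 507 CPM in LT and 504 to 588 CPM in LT+S. The single genes did not share this fall. Of 14 tested, 3 were lower and 5 higher in LT, where 23.7% and 22.8% of all genes were. In LT+S 2 were lower and 4 higher, beside 21.9% and 19.7% of all genes. The part of these shifts in the results of the clock genes was not tested.

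As a description over the 9 libraries, which share the groups and their scaling, the log2 CPM of LHY LOC106778180 followed that of both LNK2 genes (r = 0.99 each), LNK1 (0.95), RVE8 LOC106754423 (0.95), LHY LOC106760137 (0.88) and RVE8 LOC106757230 (0.87). The RVE1 genes stood apart, at 0.57 for LOC106774600, -0.12 for LOC111241017 and -0.56 for LOC106762966. Among described genes outside the group, the closest to LHY LOC106778180 were HHP2 LOC106765651 (r = 0.995), a heptahelical transmembrane protein, the putative transferase LOC106777563 (0.995) and the pathogen-related protein LOC106778885 (0.993). The last of these was at a mean of 202.5 CPM in CK, 63.2 in LT and 58.4 in LT+S. The most opposite were the receptor-like kinase ALE2 LOC106757866 (-0.991), the early nodulin-like protein LOC106759833 (-0.989) and VIL1 LOC106768991 (-0.988), a VIN3-like protein, which was at 7.58, 20.3 and 18.3 CPM. In the annotation of the file all 10 genes carried the term nucleus, 7 that of a DNA-binding transcription factor and 5 that of circadian rhythm.

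A further 8 genes were described as LNK3, LNK4 or as other REVEILLE proteins, and 7 of them were tested (RVE2 LOC106779017 was not). In LT 3 of the 7 were lower and 0 higher, beside 23.7% and 22.8% of all genes. In LT+S 2 of the 7 were lower and 0 higher, beside 21.9% and 19.7%. LNK3 LOC106755083 was at 125, 102 and 96.2 CPM in CK, 75.4, 68.5 and 57.7 in LT and 58.0, 65.2 and 70.5 in LT+S, with log2 fold changes of -0.68 (adjusted p = 0.00462 from edgeR) and -0.74 (adjusted p = 0.00363 from edgeR). LNK4 LOC106759664 was at 152 ± 7.42 CPM (SD, n = 3) in CK, 93.4 ± 2.63 CPM in LT and 89.7 ± 10.1 CPM in LT+S. Its log2 fold change was -0.71 in LT (adjusted p = 8.79e-04 from edgeR) and -0.76 in LT+S (adjusted p = 7.58e-04 from edgeR). LNK3 and LNK4 thus were lower beside LNK1 and both LNK2 genes. RVE6 LOC106758790 was lower in LT (-0.65, adjusted p = 0.0461 from edgeR) and did not pass in LT+S (-0.36, adjusted p = 0.24 from edgeR), and the difference between the cold groups did not pass either (LT+S against LT 0.29, adjusted p = 0.864 from edgeR). RVE5 LOC106774316, RVE7 LOC106770480 and the other 2 RVE6 genes, LOC106763434 and LOC106771022, did not pass in any comparison, with log2 fold changes against CK of 0.08 to 0.35 for LT and of -0.06 to 0.24 for LT+S.

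Genes of the day and evening that act against or after the morning genes were called in both directions, more of them higher than lower. Of 20 listed genes 19 were tested (APRR6 LOC106770703 had no reads), and in LT 10 were higher and 3 lower (22.8% and 23.7% of all genes), with a median log2 fold change of 0.69. In LT+S 8 were higher, 2 lower and 9 not called (19.7% of all genes were higher and 21.9% lower), with a median of 0.65. GIGANTEA LOC106772306, which in Arabidopsis carries evening timing to flowering, was at 56.0, 51.4 and 38.0 CPM in CK, 491, 520.0 and 542 in LT and 555, 528 and 544 in LT+S. All cold libraries lay far above CK, with log2 fold changes of 3.42 in LT (adjusted p = 1.63e-05 from edgeR) and 3.48 in LT+S (adjusted p = 2.37e-05 from edgeR). The second GIGANTEA gene, LOC106771921, rose less, by 0.54 and 0.65 (adjusted p = 0.0292 and 0.015 from edgeR).

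The evening complex of ELF3, ELF4 and LUX, which in Arabidopsis represses growth and clock genes at night, had both ELF3 genes and LUX called higher, while ELF4 LOC106764608 did not pass (0.78 in LT, adjusted p = 0.0537 from edgeR, and 0.72 in LT+S, adjusted p = 0.0781 from edgeR). The ELF4-LIKE genes did not share a direction. EFL1 LOC106764307 was higher in both (1.61 and 1.56), and EFL4 LOC106761088 was higher in LT alone (0.56, adjusted p = 0.0153 from edgeR). EFL4 LOC106765750 was lower in LT (-0.90, adjusted p = 0.0376 from edgeR) and did not pass in LT+S (-0.75, adjusted p = 0.077 from edgeR). The other ELF4-LIKE genes did not pass. ELF3 LOC106765119 rose from 14.7 ± 2.05 CPM (SD, n = 3) in CK to 41.7 ± 3.09 CPM under LT and 38.4 ± 0.654 CPM under LT+S, and ELF3 LOC106762260 from 4.55 ± 1.29 to 15.6 ± 5.45 and 10.95 ± 2.42. LUX LOC106754173 was called higher by 1.35 in LT (adjusted p = 0.0135 from edgeR) and 1.08 in LT+S (adjusted p = 0.0392 from edgeR), from a low level of 0.655 to 1.45 CPM in CK. APRR1 is another name of TOC1, a repressor of LHY in Arabidopsis, and more than 1 gene had this description. Of these, LOC106769035 was at 16.6, 18.3 and 17.5 CPM in CK, 26.0, 29.5 and 29.0 in LT and 32.4, 31.2 and 37.8 in LT+S. Its log2 fold change was 0.69 in LT (adjusted p = 0.00116 from edgeR) and 0.95 in LT+S (adjusted p = 3.14e-04 from edgeR). The other gene described as APRR1, LOC106756669, did not pass (-0.36 in LT, adjusted p = 0.101 from edgeR, and -0.22 in LT+S, adjusted p = 0.31 from edgeR). LOC106769035 was the only gene of this list with an unadjusted p below 0.05 between LT+S and LT (0.26, adjusted p = 0.667 from edgeR).

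The pseudo-response regulators that repress LHY earlier in the day did not share a direction. PRR37 LOC106755706 was at 714, 655 and 579 CPM in CK, 158, 210.5 and 138 in LT and 266, 181 and 202 in LT+S, with log2 fold changes of -1.94 (adjusted p = 1.66e-04 from edgeR) and -1.59 (adjusted p = 5.22e-04 from edgeR). APRR7 LOC106754416 was lower by 0.72 in LT (-0.72, adjusted p = 0.00195 from edgeR) and 0.65 in LT+S (-0.65, adjusted p = 0.00376 from edgeR). APRR5 LOC106760140 was higher, by 0.96 (adjusted p = 0.00156 from edgeR) and 1.18 (adjusted p = 7.09e-04 from edgeR). PRR95 LOC106780351 did not pass in either comparison (0.22 and 0.18). In LT+S against LT, 0 of the 19 genes passed.

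**Figure D4:**
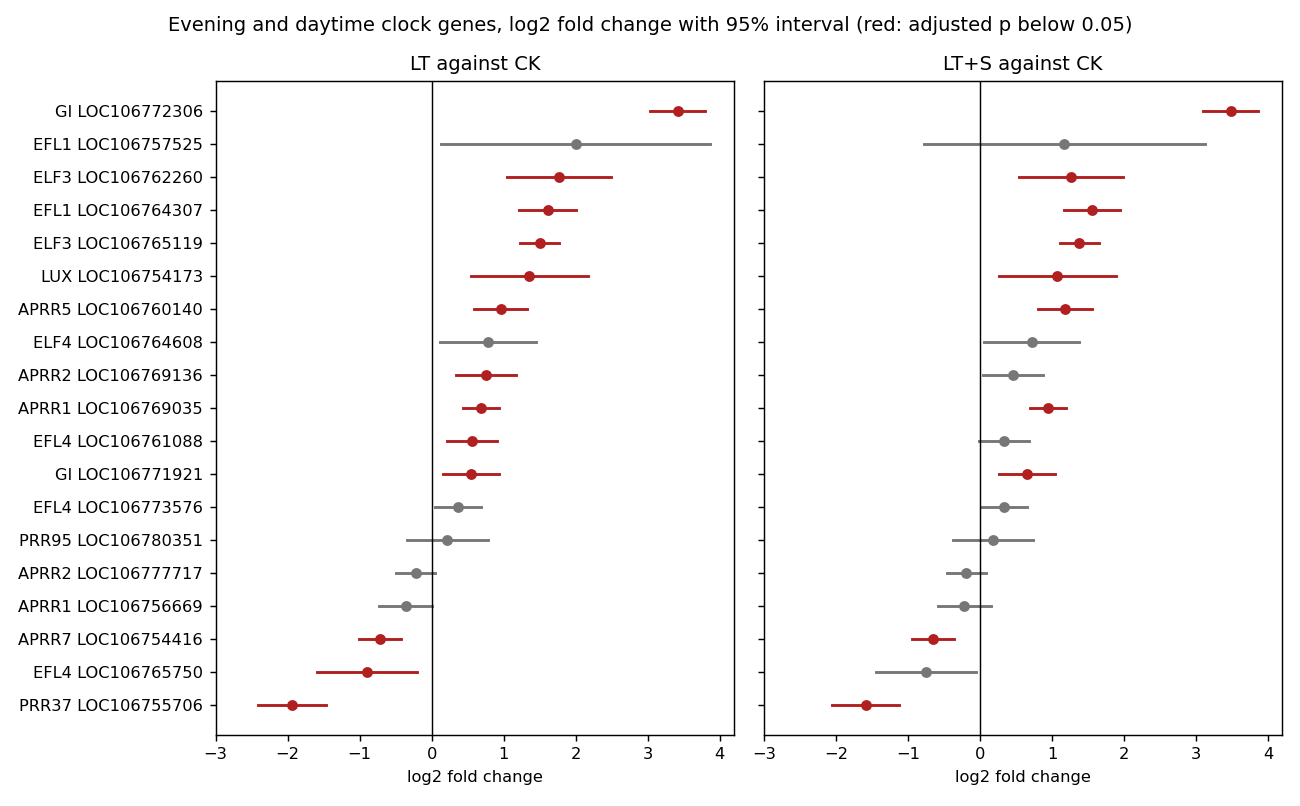
The log2 fold change (horizontal axis) of the 19 tested evening and daytime clock genes (rows, ordered by the value in LT) is plotted for LT against CK and LT+S against CK, which share the CK libraries. Points are estimates, lines are 95% intervals, and red marks an adjusted p below 0.05. GIGANTEA LOC106772306 is the highest, at 3.42 in LT and 3.48 in LT+S, and PRR37 LOC106755706 the lowest, at -1.94 and -1.59.

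Regulators of the clock and photoreceptors (28 of 29 listed genes tested) were higher in 13 and lower in 5 cases in LT, and higher in 11 and lower in 4 in LT+S, against the shares of all genes given above. ADO3 LOC106765618, the counterpart of FKF1, a blue light receptor that works with GIGANTEA in Arabidopsis, was at 5.05, 7.92 and 9.36 CPM in CK, 63.7, 59.8 and 62.7 in LT and 49.7, 60.4 and 77.6 in LT+S. TIC LOC106772194, which sustains clock amplitude in Arabidopsis, went from 19.3 ± 1.66 CPM (SD, n = 3) to 51.7 ± 5.32 and 47.0 ± 4.01. PIF4 LOC106763151, a growth-promoting transcription factor whose RNA the evening complex restrains in Arabidopsis, went from 24.4 ± 8.53 CPM (SD, n = 3) to 198 ± 32.4 and 160 ± 18.7. All 3 passed in both comparisons, with log2 fold changes of 3.06 and 3.07 for ADO3, 1.42 and 1.29 for TIC, and 3.02 and 2.71 for PIF4. These 3 were named because they had the smallest p of the list in each comparison. The other gene described as PIF4, LOC106778791, did not pass in LT (0.115, adjusted p = 0.61 from edgeR) or in LT+S (0.147, adjusted p = 0.524 from edgeR).

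Clock outputs (49 of 68 listed genes tested) were called in both directions. In LT 13 were lower and 14 higher, and in LT+S 12 were lower and 15 higher. The shares over all genes were 23.7% lower and 22.8% higher for LT, and 21.9% lower and 19.7% higher for LT+S. COL4 LOC106771336, a CONSTANS-like zinc finger gene, was higher by 2.57 in LT (adjusted p = 4.55e-05 from edgeR) and 1.36 in LT+S (adjusted p = 7.29e-04 from edgeR). Of the other genes described as COL4, LOC106762875 did not pass in LT (-0.29, adjusted p = 0.0602 from edgeR) and was lower in LT+S (-0.38, adjusted p = 0.0237 from edgeR). COL4 LOC106772449 did not pass in either comparison (-0.525 and -0.487). COL16 LOC106769784 was at 484, 562 and 548 CPM in CK, 93.0, 92.3 and 40.7 in LT and 75.2, 144 and 135 in LT+S, with log2 fold changes of -2.82 and -2.17. CDF2 LOC106766686, of a family that represses CONSTANS in Arabidopsis, was lower (-0.80 and -1.07). The other genes described as CDF2 did not pass in either comparison. They were LOC106753799 (0.529 in LT and -0.397 in LT+S), LOC106758129 (0.275 and 0.388) and LOC106764250 (0.6 and 0.093). COL13 LOC106757827 was higher (1.22 and 1.20). COL2 LOC106768879 was at 0, 0.0595 and 0.0655 CPM in CK and at 3.64 to 7.05 CPM in LT. Of the other genes described as COL2, LOC106766133 was also higher (3.554 in LT and 3.545 in LT+S). COL2 LOC106759494 was lower, by -1.01 in LT (adjusted p = 0.00202 from edgeR) and -1.11 in LT+S (adjusted p = 0.00153 from edgeR). The pathway that the file itself calls circadian rhythm holds 51 genes, of which 50 were tested and 2 (both LHY genes) belong to the 10. In LT 11 of the 50 were lower and 18 higher, in LT+S 14 were lower and 13 higher, beside those same shares of all genes, and between LT+S and LT 0 passed.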

How the data were processed

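Per the study's methods, the authors trimmed reads with Trimmomatic, used hisat2 to align them to Vradiata_ver6 and took gene counts from htseq-count. The deposited values are these raw counts, without normalization. Also named are bowtie2 and eXpress in the methods, while the submitters' processing notes name CASAVA 1.8 and Cufflinks. Neither strand nor the handling of reads that fit several genes is stated.

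Counts were tested with edgeR 4.0.16 in R 4.3.3 (filterByExpr by group, TMM, glmQLFit and glmQLFTest, 9 libraries in a single fit, Benjamini-Hochberg adjustment over 19304 genes). The 95% intervals come from the fitted standard errors. Log2 CPM for correlations used a prior count of 2. Alternatives were DESeq2 1.42.0, limma-voom (limma 3.58.1), other scalings and filters, a replicate block and each library left out. Paralog ratios were tested with scipy 1.17.1. The procedure was tested on simulated data in which a small set of genes was changed in LT alone, in both directions. That setting lacked the wide shift between CK and the cold groups, so it does not bear on the choice of scaling. Positions come from the RefSeq gene table of the same assembly; sequences and coding lengths were not used here, so that levels were not compared between genes and promoter motifs were not searched.

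Named genes were the 10 members, any tested evening gene, and the 3 of each other list with the smallest p per comparison, of which those of LT+S against LT, all without a call, are not described. Other tested genes described as CDF2, COL2, COL4 or PIF4 were named beside these. Of the other REVEILLE and LNK rows all were named. The members and lists were chosen with earlier results of these data known, and the search words of the lists were adapted to the file's descriptions before testing. The labels number the compound differently in each LT+S replicate (S3305, S3306 and S3307), and these were taken as 3 replicates of the S3307 treatment of the methods.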

Additional observations from a re-analysis of the deposited data

How the results depend on the processing

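Among the 10 genes, the counts of lower genes stayed within 1.5 times under every alternative run. The count of higher genes in LT was 0 with limma-voom, with the replicate block, with edgeR on 6 libraries and at the study's threshold (fold change over 2, unadjusted p below 0.05), and 0 to 1 with a library left out. At the study's threshold the lower genes numbered 4 for LT and 5 for LT+S, where the main count was 6 in each. The count of higher genes in LT+S against CK was 1 with library totals alone. With a library left out, the lower genes numbered 6 to 7 for LT, 5 to 7 for LT+S, and 0 passed in LT+S against LT.

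LHY LOC106760137 turned sign with library totals alone (0.24 in LT, 0.16 in LT+S), and LNK2 LOC106768266 in LT+S against LT with edgeR on 6 libraries (-0.001). Other changes of sign came with a library left out and concerned values near 0: RVE1 LOC111241017 in LT (-0.10 to 0.36), and in LT+S against LT the genes RVE8 LOC106757230 (-0.054 to 0.677), LNK2 LOC106761989 (-0.042 to 0.242), LNK2 LOC106768266 (-0.077 to 0.089) and LHY LOC106778180 (-0.094 to 0.093). The cause of each was not tested.

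Replicate numbers did not pair the libraries (correlations of same-numbered deviations were -0.24 to 0.09 between LT and CK, 0.08 to 0.27 between LT+S and CK, and -0.30 to -0.09 between LT+S and LT). The replicate block left 6 lower genes in each cold comparison and ended the call of RVE1 LOC106762966 in LT (0.87, adjusted p = 0.0703 from edgeR). With 3 pots per group and RVE1 LOC111241017 at 3 to 16 reads, small differences could not be detected. The cold groups were sampled after 4 days of cold only, and the hour of sampling is not given for any group.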
